A study of Mus musculus with 19 samples.

Results

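The genes described here encode the proteasome, the protease that degrades ubiquitin-tagged proteins, and they were followed in 9 groups of mouse regulatory T cells (Tregs). Members were all genes whose symbol starts with Psm, a letter from a to g and a digit, which gave 49 of the 14290 genes with values in stimulated Tregs and 48 of 14818 in Tregs sorted ex vivo. One of them, Psmc3ip, encodes a recombination factor and only shares the prefix, so it was left out of the counts. Of the remaining genes, 46 in each set were tested. The testis subunit Psma8 stayed under 1 RPKM (reads per kilobase of transcript, scaled to library size) in every library of both sets, and the thymus subunit Psmb11 stayed at or below 0.0136 RPKM in the stimulated set and was not analysed in the sorted set.

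All mice carried Foxp3-CRE-YFP, in which Foxp3 drives Cre and a yellow fluorescent protein in Tregs, on C57Bl/6. In the stimulated set, Tregs were cultured for 16 h with plate-bound anti-CD3 (5 ug/mL), anti-CD28 (1 ug/mL) and IL-2 (10 ng/mL), as WT cells with water, WT cells with pentoxifylline (500 ug/mL) or c-Rel-deficient cells (c-Rel F/F), with 2 libraries each. The sorted set held resting rTregs (CD62Lhi CD44lo) and activated aTregs (CD62Llo CD44hi) from spleen and lymph nodes, taken without culture from WT, p65KO (p65 F/F) and cRelKO (c-Rel F/F) mice, with 3 libraries of WT aTregs and 2 of every other group. Pentoxifylline is a methylxanthine phosphodiesterase inhibitor, and c-Rel (gene Rel) and p65 (gene Rela) are NF-kB subunits. Nothing says that replicates came from separate animals, so p-values measure the spread between these libraries, which may be technical.

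The 20S core is a barrel of alpha rings (Psma genes) around beta rings (Psmb genes), and the proteolytic sites sit in Psmb6, Psmb7 and Psmb5. Lymphocytes and interferon-exposed cells replace these with the immunoproteasome subunits Psmb9, Psmb10 and Psmb8, which shift the peptides made for MHC class I. The 19S cap recognizes and unfolds substrates through a ring of ATPases (Psmc) and non-ATPase subunits (Psmd). Psme genes encode alternative activators, Psmf1 an inhibitor, and Psmg genes the chaperones that assemble the core.

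Checks of the labels gave mixed values. Rel stood at 55.1 and 55.8 RPKM in water, 93.5 and 79.9 in pentoxifylline, 2.44 in c-Rel-deficient replicate 1 and 25.0 in replicate 2. The titles of these c-Rel-deficient libraries read c-Rel-/-, while their genotype is given as c-Rel F/F. In the sorted set Rel was 10.9 to 22.0 in WT and 1.39 to 5.37 in cRelKO, while Rela was 69.0 and 71.5 in WT and 59.9 and 69.4 in p65KO rTregs, which overlapped, and 62.3 to 68.3 in WT and 46.8 and 56.1 in p65KO aTregs, which did not. Nothing used here gives the deleted exons, so Rela reads outside them would not show the deletion. Foxp3 was 28.1 RPKM in cRelKO rTreg replicate 2 and 53.5 to 102 in the other sorted libraries. In the stimulated set Foxp3 was 290 and 237 RPKM in water, 218 and 274 in pentoxifylline, and 107 and 193 in c-Rel-deficient cells. Cd44, a marker of the sort, was 6.52 to 19.4 RPKM in rTregs and 26.4 to 61.2 in aTregs, without overlap.

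Proteasome gene RNA was lower in pentoxifylline-treated than in water-treated Tregs across the core, the cap, the activators and the assembly chaperones. Of the 46 genes, 38 fell and none rose, which is 82.6% against 23.9% of all 9945 tested genes called lower and 19.6% called higher. The median member stood at 50.5% of water, a log2 difference of -0.99 on the log2(RPKM + 0.5) scale, beside 0.00 for all tested genes. Calls are from limma with Benjamini-Hochberg adjusted p under 0.05 over all genes of the set. The summed RPKM of the 46 genes was 4664 and 6258 in water, 2606 and 3043 in pentoxifylline, and 6270 and 5731 in c-Rel-deficient cells. Both treated libraries lay below all others, and the share of all summed RPKM moved from 1.25% and 1.46% in water to 0.654% and 0.768%. In bulk RNA, fewer cells of a type and less RNA per cell cannot be told apart.

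The count depended on single libraries, although its direction did not. It was 23 without pentoxifylline replicate 1 and 25 without water replicate 2, against 39 without water replicate 1 and 37 without pentoxifylline replicate 2. Water replicate 2 was above water replicate 1 for 45 of 46 genes, by a median of 0.40 on the log2 scale. Against the water library of the same replicate number, 45 of 46 genes were lower in each treated library, with medians of -0.90 and -1.10. In 43 genes both treated libraries lay below both water libraries, beside 38.3% of all tested genes. The authors' deposited p-values were Benjamini-Hochberg adjusted here over all genes that had one. At an adjusted p under 0.05 they gave 36 of the 46 lower and none higher. Of the 38 genes that limma called, Psmd9 (adjusted p 0.122) and Psmd11 (adjusted p 0.0988) did not pass there.

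**Figure D1:**
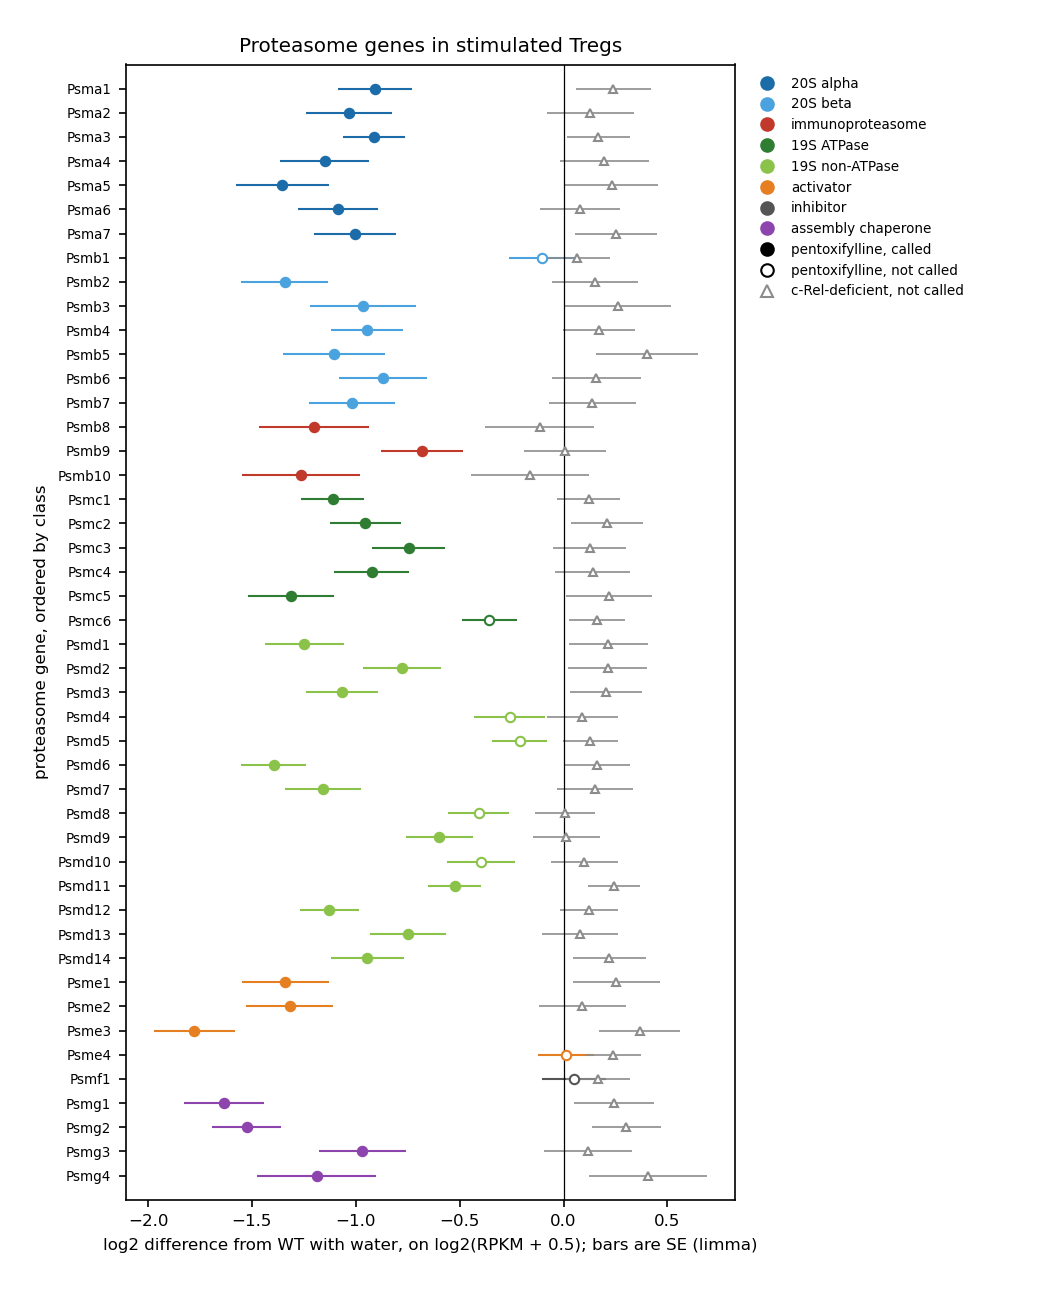
Log2 difference from WT with water for 46 proteasome genes in stimulated Tregs, on log2(RPKM + 0.5), with limma SE as bars. Coloured circles are pentoxifylline (filled where called, 38 genes) and grey triangles are c-Rel-deficient cells (0 called). The filled circles lie between -1.78 (Psme3) and -0.52 (Psmd11).

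All 7 tested alpha subunits, which form the gated outer rings, fell to a median of 48.9% of water. Psma5 fell furthest, from 24.1 and 34.7 RPKM in water to 9.52 and 12.7 in pentoxifylline (log2 -1.35 ± 0.22 SE, adjusted p = 0.0034). Psma1 fell least, from 130 and 150 RPKM to 65.8 and 84.1 (log2 -0.91 ± 0.18 SE, adjusted p = 0.00665). The groups did not overlap for either gene, and log2 differences in the class ran only from -1.35 to -0.91.

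Among the 7 constitutive beta subunits tested, 6 fell. Psmb2, a structural subunit, went from 136 and 189 RPKM to 55.7 and 71.3 (log2 -1.34 ± 0.21 SE, adjusted p = 0.00273). Psmb5, the chymotrypsin-like site, was 53.9 and 85.2 RPKM in water and 26.3 and 37.2 in pentoxifylline (log2 -1.11 ± 0.25 SE, adjusted p = 0.0104). Psmb7, the trypsin-like site, was 130 and 192 RPKM in water and 70.3 and 86.3 in pentoxifylline (log2 -1.02 ± 0.21 SE, adjusted p = 0.00777). All 3 had every treated library below every water library. Psmb6, the caspase-like site, fell least, from 117 and 174 RPKM to 76.1 and 79.6 (log2 -0.87 ± 0.21 SE, adjusted p = 0.015). Psmb1, another structural subunit, did not pass the test, with overlapping values of 200 and 242 RPKM in water and 200 and 211 in pentoxifylline (log2 -0.10 ± 0.16 SE, adjusted p = 0.63). Without pentoxifylline replicate 1, Psmb5, Psmb6 and Psmb7 had adjusted p of 0.0634, 0.0740 and 0.0547. Without water replicate 2, Psmb5 and Psmb6 had 0.0546 and 0.0690.

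All 3 immunoproteasome subunits fell along with the constitutive ones. Psmb8, the counterpart of Psmb5, was 323 and 477 RPKM in water and 138 and 210 in pentoxifylline (log2 -1.20 ± 0.26 SE, adjusted p = 0.00991). Psmb10, the counterpart of Psmb7, was 73.0 and 100 RPKM in water and 26.6 and 46.7 in pentoxifylline (log2 -1.26 ± 0.29 SE, adjusted p = 0.0111). Psmb9, the counterpart of Psmb6, moved least, from 176 and 248 RPKM to 122 and 139 (log2 -0.68 ± 0.20 SE, adjusted p = 0.028). In each, the treated libraries lay below both water libraries. These calls were lost without pentoxifylline replicate 1 (adjusted p 0.0696 for Psmb8, 0.0528 for Psmb10 and 0.146 for Psmb9) and without water replicate 2 (0.0582, 0.0747 and 0.131). Psmb9 also missed the threshold with no filter on low values (adjusted p = 0.0554) and without pentoxifylline replicate 2 (adjusted p = 0.0592).

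The ratio of immunoproteasome to constitutive subunits within a library differed by pair. The RPKM ratio Psmb8 to Psmb5 was 5.99 and 5.60 in water and 5.27 and 5.64 in pentoxifylline, so the groups overlapped. It was 3.72 and 4.38 in c-Rel-deficient cells, below the other 4 libraries. The ratio Psmb9 to Psmb6 was 1.51 and 1.43 in water, 1.60 and 1.75 in pentoxifylline, and 1.12 and 1.55 in c-Rel-deficient cells, with both treated libraries above both water libraries. Psmb10 to Psmb7 was 0.561 and 0.520 in water, 0.379 and 0.541 in pentoxifylline, and 0.375 and 0.512 in c-Rel-deficient cells, and water and pentoxifylline overlapped. With 2 libraries a group no exact test of a ratio can pass the threshold, and none was made.

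**Figure D2:**
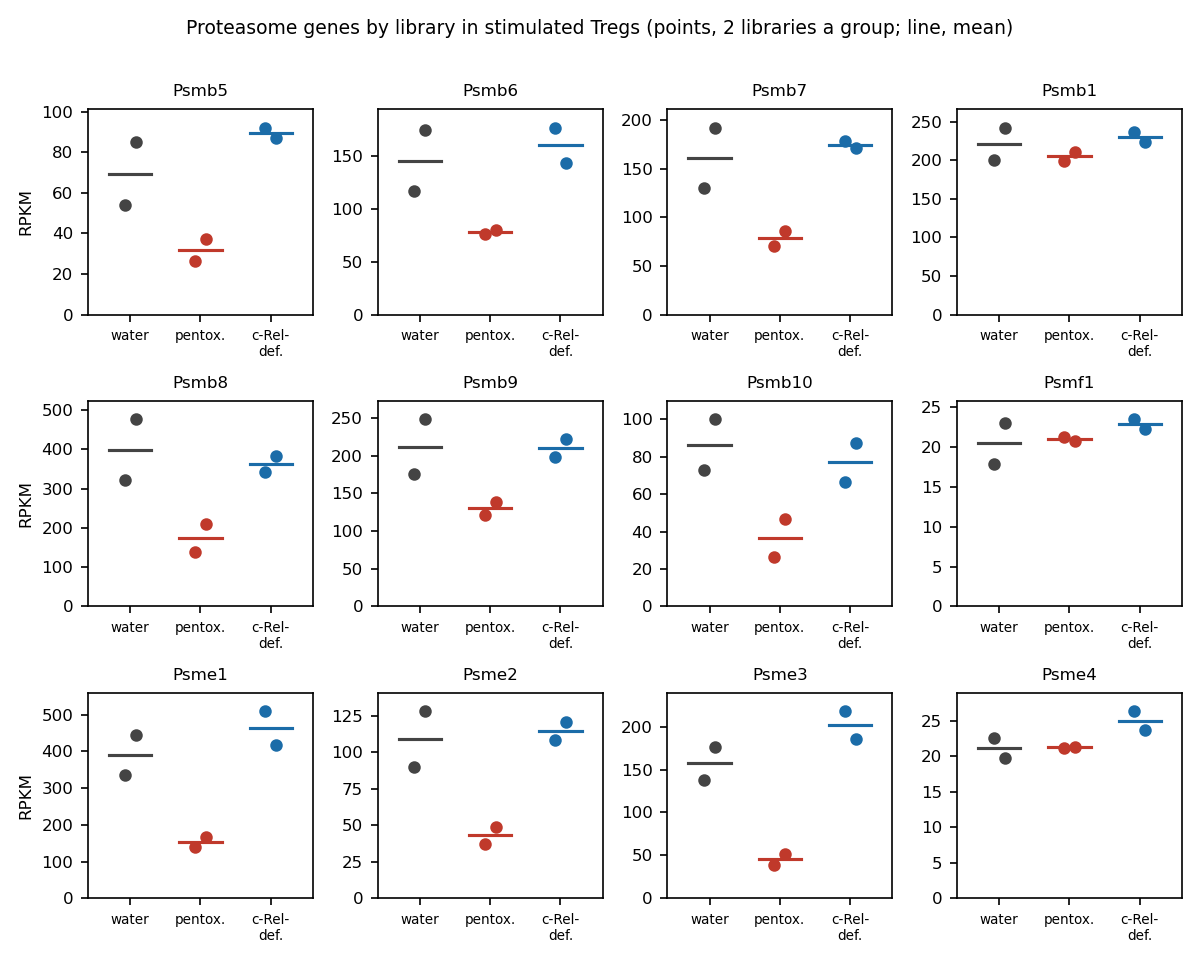
RPKM of 12 proteasome genes in each stimulated library (points, 2 a group) with the group mean (line), from water, pentoxifylline and c-Rel-deficient Tregs, each axis starting at 0. Pentoxifylline points lie below both water points for Psmb5 to Psmb10 and Psme1 to Psme3, and overlap them for Psmb1, Psme4 and Psmf1.

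In the 19S cap, 15 of 20 genes fell. Among the ATPases, which unfold substrates, 5 of 6 fell. Psmc5 fell furthest, from 121 and 169 RPKM to 51.7 and 63.6 (log2 -1.31 ± 0.21 SE, adjusted p = 0.00286). Psmc3 fell least among those called, from 117 and 158 RPKM to 77.3 and 84.7 (log2 -0.74 ± 0.18 SE, adjusted p = 0.0132). Psmc6 was lower without passing the test, at 74.0 and 82.9 RPKM in water against 59.1 and 62.9 (log2 -0.36 ± 0.13 SE, adjusted p = 0.063). The groups did not overlap for these 3 ATPases. The Psmc3 call was lost without pentoxifylline replicate 1 (adjusted p = 0.0778) and without water replicate 2 (adjusted p = 0.0628).

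Non-ATPase cap genes varied more, with 10 of 14 called and log2 differences from -1.40 to -0.21. Psmd6, a subunit of the lid, fell from 70.8 and 87.9 RPKM to 27.1 and 32.4 (log2 -1.40 ± 0.16 SE, adjusted p = 0.000992). Psmd11, also of the lid, fell from 55.1 and 60.6 RPKM to 39.7 and 40.4 (log2 -0.52 ± 0.13 SE, adjusted p = 0.0147). Its call was lost without pentoxifylline replicate 1 (adjusted p = 0.071) and without water replicate 2 (adjusted p = 0.077). The 4 that were not called were Psmd8 (log2 -0.41, adjusted p = 0.0552), the assembly chaperone Psmd10 (log2 -0.40, adjusted p = 0.084), the ubiquitin receptor Psmd4 (log2 -0.26, adjusted p = 0.254) and the assembly chaperone Psmd5 (log2 -0.21, adjusted p = 0.226). Each of these had both treated libraries below both water libraries, and Psmd8 passed without water replicate 1 (log2 -0.54).

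The activators split most sharply. Psme3, the nuclear PA28 gamma, fell more than any other tested member, from 138 and 176 RPKM in water to 39.3 and 51.9 in pentoxifylline (log2 -1.78 ± 0.20 SE, adjusted p = 0.000908). Psme1, the interferon-inducible PA28 alpha, fell from 336 and 445 RPKM to 139 and 167 (log2 -1.34 ± 0.21 SE, adjusted p = 0.00276). Its partner Psme2, PA28 beta, fell from 90.1 and 128 RPKM to 37.5 and 48.9 (log2 -1.32 ± 0.21 SE, adjusted p = 0.00292). None of these 3 genes had overlapping groups. Psme4, which encodes PA200, was at 22.5 and 19.7 RPKM in water and 21.1 and 21.3 in pentoxifylline (log2 0.01 ± 0.13 SE, adjusted p = 0.959). Psmf1, the PI31 inhibitor, was at 17.9 and 23.1 RPKM in water and 21.3 and 20.8 in pentoxifylline (log2 0.05 ± 0.15 SE, adjusted p = 0.818). For both, treated values lay within the water values.

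All 4 chaperones of core assembly fell, with a median at 39.1% of water. Psmg1 went from 36.5 and 49.0 RPKM to 12.0 and 14.7 (log2 -1.63 ± 0.19 SE, adjusted p = 0.00115). Psmg2, its dimer partner, went from 33.6 and 42.3 RPKM to 11.9 and 13.7 (log2 -1.53 ± 0.17 SE, adjusted p = 0.000897). Psmg3 moved least, from 26.1 and 37.6 RPKM to 13.6 and 18.3 (log2 -0.97 ± 0.21 SE, adjusted p = 0.00954). All 3 were separated between groups, but the Psmg3 call was lost without pentoxifylline replicate 1 (adjusted p = 0.0557) and without water replicate 2 (adjusted p = 0.0579). Psmg4 was called at log2 -1.19 ± 0.28 SE (adjusted p = 0.0138), and this call was lost without the same libraries (adjusted p = 0.0801 and 0.076).

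Some members share sequence with pseudogenes or neighbours, which makes their reads hard to assign. In the reference transcripts, 20% or more of the 50-base words of 9 tested members also occur in another gene, with 54.9% for Psme2 (shared with Psme2b), 54.1% for Psmb5, 55.4% for Psma5 and 28.1% for Psmb7 (shared with Nek6). Values of these genes are uncertain. Of the 22 tested members with no shared word, 17 fell and the median log2 difference was -1.08. All 9 members at 20% or more fell, with a median of -1.02. Of all tested genes, 23.9% were called lower.

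Genes around the proteasome did not move as one. Shares of all tested genes, 23.9% called lower and 19.6% higher, stand beside each list. Of 9 cap components and partners outside the Psm symbols, 5 fell and 1 rose. Pomp, the chaperone that completes the core, fell from 199 and 246 RPKM to 85.7 and 111 (log2 -1.17 ± 0.19 SE, adjusted p = 0.00325). The deubiquitinase Usp14 fell from 20.5 and 22.9 RPKM to 15.3 and 13.8 (log2 -0.56 ± 0.13 SE, adjusted p = 0.0141). Akirin2, which carries proteasomes into the nucleus, rose from 32.9 and 34.4 RPKM to 53.7 and 46.4 (log2 0.56 ± 0.13 SE, adjusted p = 0.0139). The last 2 calls each depended on single libraries. Usp14 lost its call without water replicate 2 (adjusted p = 0.0873) or pentoxifylline replicate 2 (adjusted p = 0.0597). Akirin2 lost it without water replicate 1, water replicate 2 or pentoxifylline replicate 1 (adjusted p = 0.0531, 0.0526 and 0.0827).

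Among 12 ubiquitin genes, E1 enzymes and shuttle factors, 5 fell and 1 rose, beside 23.9% and 19.6% of all tested genes. The shuttle factor Rad23b fell from 62.9 and 78.1 RPKM to 36.3 and 40.5 (log2 -0.86 ± 0.17 SE, adjusted p = 0.0074). Ddi2, the protease that activates the proteasome gene activator Nrf1, rose from 13.9 and 14.2 RPKM to 32.2 and 21.8 (log2 0.89 ± 0.19 SE, adjusted p = 0.00931). Treated libraries lay above water for Ddi2 and below it for Rad23b.

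The list of Nrf1 and p97 genes held 8, of which 3 rose and 2 fell, beside 19.6% and 23.9% of all tested genes. Nfe2l2, the oxidative stress factor Nrf2, rose from 17.1 and 18.0 RPKM to 34.7 and 31.3 (log2 0.89 ± 0.16 SE, adjusted p = 0.00488). Ddi2 belongs here too, and the deglycosylase Ngly1 rose by log2 0.60 ± 0.13 SE (adjusted p = 0.01). Nfe2l1, which encodes Nrf1 itself, had 46.4 and 48.9 RPKM in water and 73.3 and 55.6 in pentoxifylline and did not pass (log2 0.42 ± 0.17 SE, adjusted p = 0.0827), although it did without pentoxifylline replicate 2 (log2 0.61). The p97 segregase Vcp (log2 -0.49, adjusted p = 0.0242) and its cofactor Nsfl1c (log2 -0.55, adjusted p = 0.0277) fell. Without pentoxifylline replicate 1, the calls for Vcp (adjusted p = 0.114), Nsfl1c (0.121) and Ngly1 (0.0532) were lost. Without water replicate 2 the same genes had 0.124, 0.148 and 0.0642, and without pentoxifylline replicate 2 Vcp and Nsfl1c had 0.0577 and 0.063.

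Of 15 MHC class I antigen processing genes, 7 fell and none rose, beside 23.9% and 19.6% of all tested genes. The peptide-trimming Erap1 fell from 60.5 and 74.6 RPKM to 19.1 and 31.5 (log2 -1.44 ± 0.23 SE, adjusted p = 0.00316). The chaperone Calr fell from 499 and 684 RPKM to 204 and 303 (log2 -1.23 ± 0.25 SE, adjusted p = 0.00764), a call lost without pentoxifylline replicate 1 (adjusted p = 0.0637). The class I heavy chain genes H2-K1 (log2 0.25, adjusted p = 0.459) and H2-D1 (log2 0.46, adjusted p = 0.129) did not pass, and neither did the peptide transporter Tap1 (log2 -0.24, adjusted p = 0.235).

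Other values moved with the treatment. The summed RPKM of 6 Treg markers was 2225 to 2332 in water and 1595 to 1957 in pentoxifylline. Of these, only Il2ra was separated, at 850 and 842 RPKM in water and 313 and 451 in pentoxifylline. Foxp3 (290 and 237 against 218 and 274), Ctla4, Ikzf2, Cd4 and Cd3e overlapped. The sum of 7 B cell markers was 7.30 to 10.3 and 5.21 to 6.29, and that of 3 plasma cell markers 33.2 to 33.9 and 16.3 to 27.9. The plasma cell markers did not move together. Prdm1 was lower (22.1 and 17.3 against 8.06 and 8.79), Sdc1 was higher (0.718 and 0.961 against 3.19 and 3.22), and Igj overlapped. Ebf1 and Pax5, which define B cells, reached 0 in some library and no more than 0.113 RPKM in any. Sums of 8 myeloid markers (85.7 to 124 and 88.8 to 110) and 10 stress and dissociation genes (679 to 691 and 679 to 732) overlapped. Most of the myeloid sum was Cst3, at 81.6 and 118 RPKM in water and 86.6 and 107 in pentoxifylline. Tyrobp was lower without overlap (1.78 and 1.53 against 0.916 and 0.237), as were Itgax and Csf1r, at no more than 0.186 RPKM. Cd14 was higher without overlap, and Lyz2, Fcer1g and Itgam overlapped. Single stress genes moved in opposite directions. Junb was 389 and 349 RPKM in water and 555 and 512 in pentoxifylline, and Hspa1a and Hspa1b were also higher. Hsph1 was 80.1 and 101 RPKM in water and 17.5 and 23.1 in pentoxifylline. Hsp90aa1, Atf3, Fosb, Fos and Jun were also lower without overlap, and Dnajb1 overlapped. Relative depth, read from the smallest steps of low values, was 0.949 in water replicate 2 and 0.793 and 0.682 in the treated libraries, as a fraction of water replicate 1. The part of these in the fall of the proteasome genes was not tested.

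The bases just upstream of 4 members are shown because Psmb5 and Psmb8 form a constitutive and an immune pair that fell together, while Psme3 fell most and Psme4 did not pass. Each run is the 100 bases before the annotated start, from RefSeq on GRCm38.p6, 5′ to 3′ on the gene's strand. Psmb5 is at chr14:54617996-54618095 (minus strand), Psmb8 at chr17:34198095-34198194, Psme3 at chr11:101316113-101316212 and Psme4 at chr11:30771675-30771774 (plus strand). Capitals mark matches, on either strand, to the antioxidant response element core TGACNNNGC, a kappaB-like motif (GGG and CC with any 5 bases between), the interferon-stimulated element core (GAAA, any 2 bases, GAAA) or the gamma-activated site TTCNNNGAA. No motif overlaps another in the bases shown.
Psmb5: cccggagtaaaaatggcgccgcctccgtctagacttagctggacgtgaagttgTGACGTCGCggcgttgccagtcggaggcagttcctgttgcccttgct
Psmb8: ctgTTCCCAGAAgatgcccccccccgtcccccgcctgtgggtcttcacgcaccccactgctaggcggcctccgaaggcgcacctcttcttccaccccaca
Psme3: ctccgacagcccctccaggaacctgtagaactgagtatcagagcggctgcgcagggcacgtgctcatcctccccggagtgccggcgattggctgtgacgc
Psme4: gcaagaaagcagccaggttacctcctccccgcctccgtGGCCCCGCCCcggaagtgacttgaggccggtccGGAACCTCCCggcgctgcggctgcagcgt

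Psmb5 holds the antioxidant response core 47 bases before its start, Psmb8 a gamma-activated match 97 bases before, and Psme4 kappaB-like matches and an antioxidant core that begins 7 bases before its start and runs past the bases shown. Psme3 holds none of the 4 motifs in these bases. Windows of 250 bases before to 50 after the start were at hand for 40 member genes (43 windows). The antioxidant response core was in 14.0% of them (Psmd9, Psme4, Psmb6, Psmd12, Psmc6 and Psmb5) and in 12.4% of all 32851 windows, the kappaB-like motif in 53.5% and 50.8%, the interferon-stimulated core in 11.6% (Psmd4, Psmd9, Psmb3, Psmg4 and Psme1) and 3.44%, and the gamma-activated site in 6.98% (Psmd2, Psmg1 and Psmb8) and 8.30%. A match describes letters in this window and not a bound site.

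No proteasome gene passed the test for loss of c-Rel in stimulated cells. In c-Rel-deficient against WT Tregs with water, limma called 0 of 46 members (0 at an unadjusted p under 0.05) and 0 of all genes (791 unadjusted). The authors' deposited p-values, adjusted here, gave 0 members. The limma count stayed at 0 when any 1 library was left out, c-Rel-deficient replicate 2 included. The median log2 difference was 0.16, with 44 of 46 means above water, beside 0.06 for all genes. The signs followed the libraries compared, since the median was 0.40 against the same-numbered water library in replicate 1 and -0.12 in replicate 2. Psme3 was 218 and 186 RPKM in c-Rel-deficient cells against 138 and 176 in water, which did not overlap (log2 0.37). The immunoproteasome genes were the only class with a median below 0 (log2 -0.11), and Psmb10 was 66.7 and 87.4 RPKM against 73.0 and 100 in water, overlapping.

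Set against c-Rel-deficient cells instead, which shares the treated libraries with the comparison above, pentoxifylline had 41 of 46 members called lower (89.1%, against 26.8% of all genes) and none higher. In all 46 both treated libraries lay below both c-Rel-deficient libraries, beside 39.5% of all genes. Psme3 had the largest log2 difference, -2.14 (adjusted p = 0.000367), followed by Psmg1 at -1.88 (adjusted p = 0.000528). In each other class, the differences called ran from -1.59 (Psma5) to -1.08 (Psma3) in the alpha rings, -1.51 (Psmb5) to -1.03 (Psmb6) in the constitutive beta rings, -1.10 (Psmb10) to -0.69 (Psmb9) in the immunoproteasome, -1.53 (Psmc5) to -0.52 (Psmc6) in the ATPases and -1.56 (Psmd6) to -0.42 (Psmd8) in the non-ATPase cap. The smallest called difference was -1.41 (Psme2) among activators and -1.09 (Psmg3) among assembly chaperones.

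In Tregs sorted without culture, proteasome genes were expressed throughout, from 6.05 to 707 RPKM for tested members. The deposited sorted values carry an adjustment and are not compared with the stimulated set. Psmb8 had the highest mean level (480 RPKM), then Psme1 (288), Psmb9 (270), Psmb1 (184) and Psma2 (180), and Psmd11 (8.38) and Psme4 (8.11) the lowest of those tested. Psmb1 and Psma2 do not differ beyond their spread, with ranges of 151 to 247 and 133 to 268.

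WT rTreg replicate 1 stood apart and touched every comparison with WT rTregs. It held the highest value of 13 libraries for 41 of 46 members, beside 28.0% of all tested genes, and its summed level was 5367 RPKM against 3583 in the other WT rTreg library. The remaining libraries ran from 3254 (WT aTreg replicate 1) to 4436 (p65KO rTreg replicate 2). Its 10 stress and dissociation genes summed to 1001 RPKM, against 669 in the other WT rTreg library and 549 to 662 in the other rTregs. In aTregs this stress sum was 559 to 854, highest in cRelKO aTreg replicate 3, where the proteasome genes summed to 3927 RPKM. A second library, cRelKO rTreg replicate 2, had the lowest Foxp3 (28.1 RPKM) and Ikzf2 (4.35, against 18.5 to 121 elsewhere), both Treg transcription factors, and the highest sum of 5 erythroid markers (81.9). The part of these in the results was not tested.

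**Figure D3:**
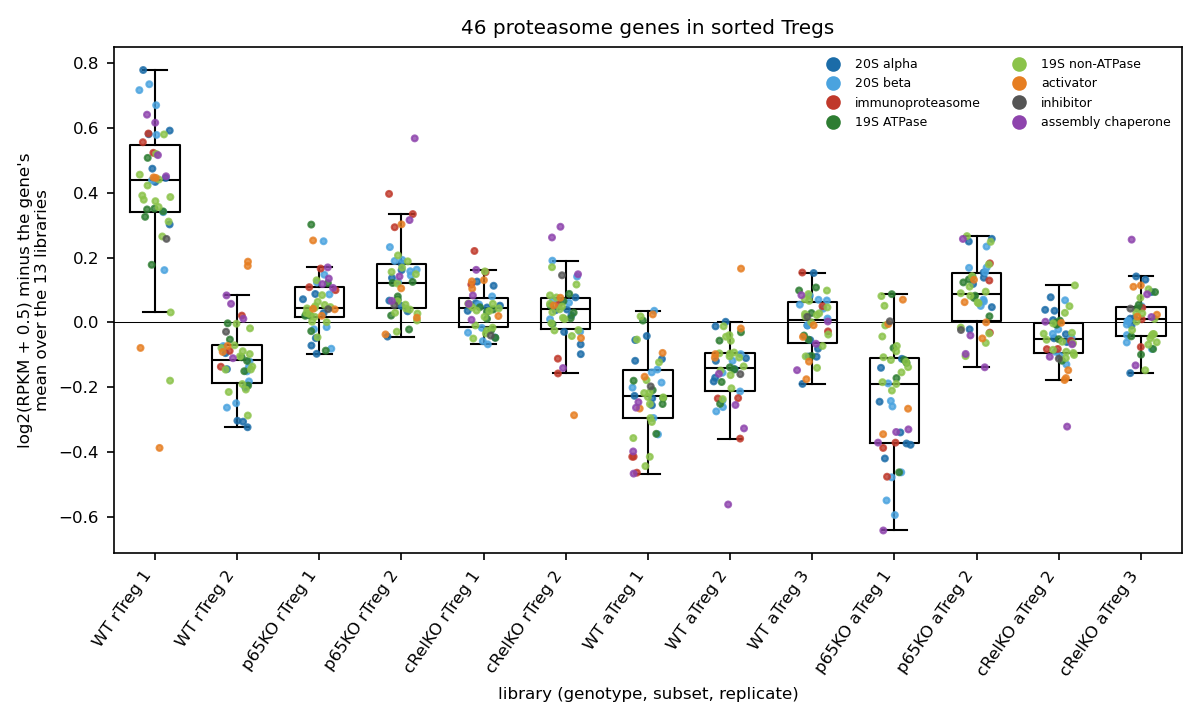
Each of 46 proteasome genes in 13 libraries of sorted Tregs, as log2(RPKM + 0.5) minus that gene's mean over the libraries. Points are genes coloured by class, and boxes give the quartiles with the median as a line. WT rTreg replicate 1 lies above the others for most genes, and WT aTreg replicate 1 and p65KO aTreg replicate 1 hold the lowest value of 20 and 16 genes.

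Between aTregs and rTregs, few proteasome genes passed. In WT alone, limma called 0 members (8 at an unadjusted p under 0.05), where 4.68% of all genes were called lower and 7.54% higher, and the median log2 difference was -0.26. Without WT rTreg replicate 1 the median was -0.02 with 0 called, without WT rTreg replicate 2 it was -0.54 with 29 called lower, and without WT aTreg replicate 3 the count was 2. Within p65KO, 0 were called (2 unadjusted, 0.385% of all genes called lower and 2.79% higher, 3.17% in all) with a median of -0.14, and within cRelKO 0 were called (0 unadjusted, 0% of all genes) with a median of -0.06. The authors' deposited p-values, adjusted here, gave 0 members between WT aTregs and rTregs.

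Over the mean of the 3 genotypes, 4 of 46 fell in aTregs and none rose, which is 8.70% beside 16.2% of all 10656 tested genes called lower, of 32.7% called in either direction. The chaperone Psmg4 was 27.9 to 40.7 RPKM with a median of 30.1 in the 6 rTreg libraries and 16.7 to 31.6 with a median of 21.9 in the 7 aTreg libraries (log2 -0.52 ± 0.15 SE, adjusted p = 0.0277). Psmg1 was 26.8 to 41.7 (median 34.1) in rTregs and 20.8 to 29.3 (median 26.9) in aTregs (log2 -0.39 ± 0.12 SE, adjusted p = 0.0277). Psmg2 was 19.5 to 30.6 (median 21.5) and 14.6 to 20.6 (median 17.6) RPKM (log2 -0.36 ± 0.11 SE, adjusted p = 0.0327). The ranges of the subsets overlapped for all 3 chaperones. Psmb10 was 127 to 184 (median 137) and 89.9 to 139 (median 118) RPKM, also overlapping (log2 -0.39 ± 0.13 SE, adjusted p = 0.0446). The other chaperone, Psmg3, did not pass (log2 -0.16, adjusted p = 0.287).

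Sums of markers of other cells mostly overlapped between the sorted subsets. The summed RPKM of 4 plasma cell markers was 4.39 to 8.54 in rTregs and at least 10.8 in aTregs, without overlap. This gap lay in Prdm1, at 2.75 to 4.35 RPKM in rTregs and 8.11 to 18.4 in aTregs. Jchain (0.953 to 3.82 and 1.09 to 4.13), Sdc1 and Mzb1 overlapped. The sum of 7 B cell markers was 11.0 to 19.3 and 17.3 to 29.4, while Ebf1 and Pax5 did not exceed 0.110 RPKM. Sums of 2 CD8 T cell markers (12.4 to 22.1 and 7.96 to 15.2), 8 myeloid markers (75.4 to 126 and 77.5 to 114) and 5 erythroid markers (0.213 to 81.9 and 0.398 to 49.0) overlapped. Most of the myeloid sum was Cst3, at 70.6 to 121 RPKM. Tyrobp was 11.7 and 7.41 RPKM in cRelKO aTregs and at most 2.67 elsewhere. Fcer1g (5.60 and 1.98, elsewhere at most 1.37) and Itgax (2.26 and 0.786, elsewhere at most 0.333) were also highest there. Lyz2, Itgam, Csf1r and Cd14 in cRelKO aTregs overlapped the other libraries. For 4 NK cell markers the sum was 45.5 in cRelKO aTreg replicate 2 and at most 14.7 elsewhere. Treg markers summed to 831 to 1258 RPKM in rTregs and 1091 to 1326 in aTregs. The part of these in the aTreg against rTreg differences was not tested.

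These 4 calls rest on single libraries. The count was 0 without p65KO rTreg replicate 2, cRelKO rTreg replicate 2 (the library with low Foxp3), WT aTreg replicate 2, p65KO aTreg replicate 1 or cRelKO aTreg replicate 2. It was 1 without WT rTreg replicate 1 or WT aTreg replicate 1, 2 without p65KO rTreg replicate 1 or cRelKO aTreg replicate 3, and 24 without WT rTreg replicate 2. Psmb10 also missed the threshold with no filter (adjusted p = 0.0563) and with median-of-ratios scaling (adjusted p = 0.0523). The median of all members was -0.15, beside -0.07 for all genes.

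Ratios within the catalytic pairs overlapped between the subsets, least for Psmb10 to Psmb7. The Psmb8 to Psmb5 ratio was 5.57 to 6.92 in rTregs and 5.20 to 7.38 in aTregs, and Psmb9 to Psmb6 was 2.13 to 3.06 and 2.50 to 3.05, so both overlapped. The Psmb10 to Psmb7 ratio was 4.91 to 6.48 in rTregs and 3.60 to 5.24 in aTregs, where every library but WT aTreg replicate 3 lay below all rTreg libraries. No test of a ratio was made. The annotation used for counting is not given for either table, and Psmb7 shares 28.1% of its 50-base words with Nek6, so the level of this ratio is uncertain. Neither Psmb8 (log2 -0.28, adjusted p = 0.149) nor Psmb9 (log2 -0.26, adjusted p = 0.185) passed, but Psmb8 did without WT rTreg replicate 2 (log2 -0.40). Psmb5 (log2 -0.32, adjusted p = 0.134), Psmb6 (log2 -0.34, adjusted p = 0.1) and Psmb7 (log2 -0.01, adjusted p = 0.965) did not pass. Among activators, Psme3 (log2 -0.04, adjusted p = 0.574) and Psme4 (log2 0.00, adjusted p = 0.995) were close to equal means, and Psme1 (log2 -0.21, adjusted p = 0.18) and Psme2 (log2 -0.21, adjusted p = 0.148) were not called.

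**Figure D4:**
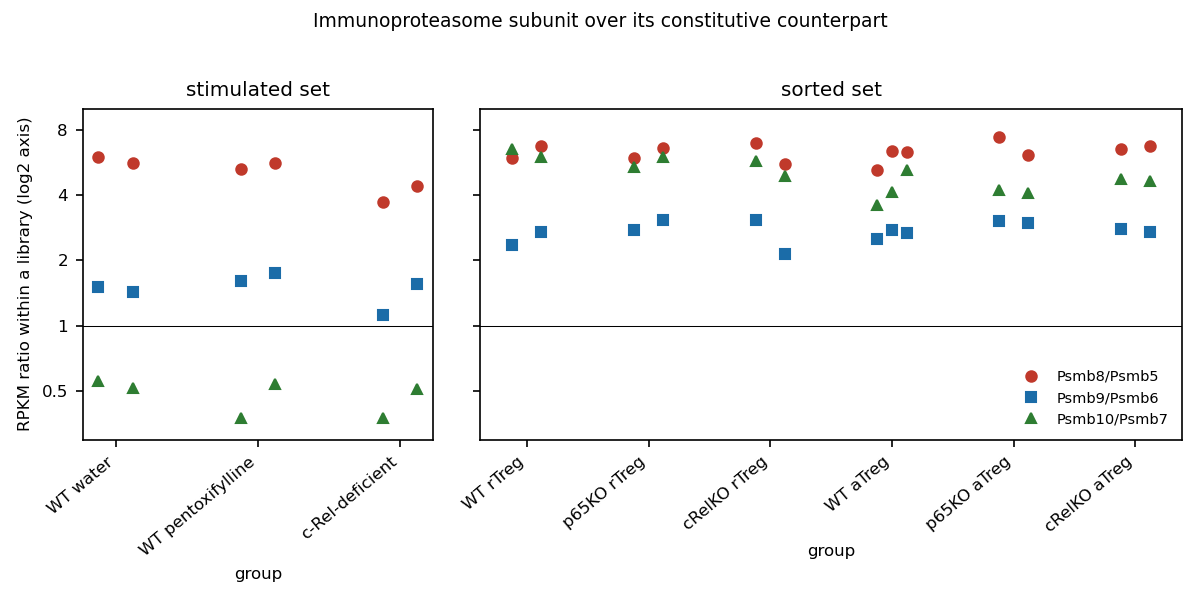
RPKM ratio of each immunoproteasome subunit to its constitutive counterpart in every library, on a log2 axis, by group, with the stimulated set left and the sorted set right. Each point is a library. Psmb10 to Psmb7 runs from 0.375 to 0.561 in the stimulated set and, in the separately normalized sorted set, from 4.91 to 6.48 in rTregs and 3.60 to 5.24 in aTregs.

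Around the proteasome, the aTreg against rTreg mean had few calls. Nfe2l2 fell from 21.2 to 34.6 RPKM (median 25.4) to 11.5 to 20.8 (median 16.6), without overlap (log2 -0.69 ± 0.16 SE, adjusted p = 0.0103). Vcp rose from 71.1 to 84.3 RPKM (median 81.3) to 85.7 to 102 (median 87.1), without overlap (log2 0.20 ± 0.05 SE, adjusted p = 0.0166). The Nfe2l2 call held without any 1 library, and the Vcp call was lost without p65KO rTreg replicate 2 (adjusted p = 0.0567) or cRelKO aTreg replicate 2 (adjusted p = 0.0535). Beside 16.2% of all tested genes called lower and 16.6% higher, the counts were 1 of 9 cap partners lower (Adrm1, log2 -0.24), 1 of 12 ubiquitin genes higher (Uba6, log2 0.31) and 2 lower (among them Rps27a, log2 -0.44), and 1 of 16 class I genes lower (Irf1, log2 -0.40). Each of the single calls for Adrm1, Uba6, Rps27a and Irf1 was lost when some libraries were left out. With all libraries kept, the Rps27a call was also lost with pseudocount 0.1 (adjusted p = 0.0502), no filter (adjusted p = 0.0663), a filter of 3 RPKM (adjusted p = 0.0504) and median-of-ratios scaling (adjusted p = 0.0524).

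Loss of p65 or c-Rel moved no proteasome gene past the threshold in sorted Tregs. In rTregs, aTregs and the mean of both subsets, limma called 0 members for either genotype, and 0 in the test of whether the effect differed between subsets. Medians in rTregs were -0.06 for p65KO (1 at an unadjusted p under 0.05) and -0.11 for cRelKO (0 unadjusted), and in aTregs 0.08 for p65KO (0 unadjusted) and 0.10 for cRelKO (0 unadjusted). Background counts were as low, with 1 gene of all called (0.00938%) in p65KO over both subsets and 0 (0%) in every other genotype comparison. Psmb8 in rTregs was 706 and 443 RPKM in WT, 529 and 578 in p65KO and 511 and 436 in cRelKO. In aTregs it was 342, 401 and 488 in WT, 364 and 516 in p65KO and 445 and 475 in cRelKO. Values of each knockout overlapped those of WT in both subsets, p65KO and cRelKO rTregs did not overlap each other, and the WT rTreg spread was the widest among the rTregs. The authors' deposited p-values, adjusted here, gave 0 members in each genotype comparison with WT.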

How the data were processed

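RNA of 19 libraries (6 stimulated, 13 sorted) was prepared with Qiagen RNeasy and a TruSeq kit, per the labels' protocols, with DESeq2 1.10.1, STAR and the mm10 build listed in the submitters' processing notes. The counting tool and annotation are not given in the sources used here. Each deposited table gives RPKM for every library beside p-values and log2 fold changes from comparisons run by the authors, per the file headers. In the sorted set the headers call the RPKM adjusted, without saying how, and 2.54% of its values lie below 0 (lowest -30.7). The tables carry no raw counts, and absolute depth is unknown from these values, so no count test was used.

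Members and gene lists were chosen with earlier results of these data known. Values below 0 were set to 0, genes at 1 RPKM in 2 libraries kept, and log2(RPKM + 0.5) fitted with limma 3.58.1 in R 4.3.3 (group means, trended eBayes, all groups of a set, 2-sided). Benjamini-Hochberg adjustment ran over all genes of the set, at 0.05, in 15 comparisons within a set. The authors' deposited p-values were adjusted in the same way over the genes that had one. Named with values are the catalytic pairs, all Psme genes, and per class the called members with the largest and smallest difference, members that moved against their class or were not tested, and up to 2 called genes per direction in each pathway list. Promoter windows came from RefSeq (GRCm38.p6), and shared 50-base words from GENCODE transcripts of GRCm38. The fit was tested on simulated data. Alternatives were pseudocounts 0.1 and 1, no filter, 3 RPKM in 2 libraries, median-of-ratios scaling, fitting only the groups compared, robust variance, blocking on the replicate number, and dropping 1 library at a time. Values of a few single genes of the pathway and marker lists are not reported here.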

Additional observations from a re-analysis of the deposited data

How the results depend on the processing

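Apart from leaving out libraries, the number of members called under pentoxifylline was 37 or 38 in every alternative, and that in aTregs against rTregs over 3 genotypes 3 or 4. When 1 library was left out, the first ran from 23 to 39, that for WT aTregs against rTregs from 0 to 29, that over 3 genotypes from 0 to 24, and that for pentoxifylline against c-Rel-deficient cells from 33 to 39. The lone library of an arm was then assumed to vary like the other groups. The cause was not tested. Psmf1 changed sign without water replicate 1 (-0.131; 0.23 without water replicate 2), as did Psmb1 (0.0356; -0.241 without water replicate 1) and Psme4 (-0.0817; 0.102 without water replicate 1) without water replicate 2, none of them called. Of the counts over all comparisons and alternatives, 198 kept within 1.5 times the main count and 14 did not, and of single-gene results 875 kept their call, 112 lost it, 3 gained one and 3 changed sign. With a replicate block, the counts were 38 for pentoxifylline and 4 over 3 genotypes, and 14 of 15 comparisons had the same count. Only pentoxifylline against water, pentoxifylline against c-Rel-deficient cells and aTregs against rTregs over 3 genotypes had a main count above 0. A count that stayed at 0 was scored as unchanged, here and among the 198, and says little about stability. Same-numbered deviations correlated at 0.402 between water and pentoxifylline, at -0.0653 and 0.115 with c-Rel-deficient cells, and at -0.488 to 0.442 in the sorted set. The numbers were not taken as a pairing, since no label says they mark a shared animal, batch or day. Low relative depth of the treated libraries (0.793 and 0.682 of water replicate 1) limits the precision of low genes, and in the sorted set depth could not be read.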

Other observations

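Psmc3ip, a meiotic recombination factor that shares only the symbol prefix, was 9.83 and 13.7 RPKM in water, 2.67 and 2.00 in pentoxifylline and 10.3 and 9.04 in c-Rel-deficient cells. It fell with pentoxifylline by 2.11 on the log2 scale (limma, Benjamini-Hochberg adjusted p = 0.000778), and the aTreg against rTreg mean was -0.02 (adjusted p = 0.91).

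The tables were normalized separately and the annotation behind them is not given, so the levels and ranks of 4 subunits are values within each table. Psmb7 had a mean of 138 RPKM in the stimulated libraries (rank 9 of the members) and 25.5 in the sorted libraries (rank 38). Psme2 had 89.0 (rank 25) and 18.7 (rank 41), and Psmd11 had 55.5 (rank 35) and 8.38 (rank 45). Psmb10 stood at 66.8 (rank 30) and 128 (rank 9).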
